A study of Mus musculus with 13 samples.

Results

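Binding of STAG2 was set against binding of CTCF in quiescent NU1 mouse urothelial cells. The comparison used 4 of the 12 lists of ChIP-seq peaks in the study, which were the lists labelled STAG2 and quiescent (2 libraries) and those labelled CTCF and quiescent (2 libraries). They were chosen by these labels and by no measured value. The STAG2 libraries held 38407 and 34281 peaks and the CTCF libraries 51835 and 71757 peaks. Over the 12 lists the number of peaks lay between 34281 and 71757, so the shortest and the longest list of the study both belong to this comparison.

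NU1 is a line of normal mouse urothelium, the lining of the bladder, that became immortal on its own during passaging, and its genotype is given as WT. All 4 libraries came from cells grown to confluence and then kept in complete medium with 1 uM rosiglitazone, which switches on PPAR gamma, together with erlotinib at 0.5 uM, which blocks the kinase of the EGF receptor. The STAG2 precipitations used 25 ug of an antibody credited to Remeseiro and colleagues, and the CTCF precipitations 25 ug of an antibody from Millipore. The 2 libraries of each group are biological replicates of 1 cell line. A further sample, titled as input and labelled as IgG, was not analysed here. Peak lists hold no expression, so the labelled cell type could not be checked against the expression of its markers.

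Cohesin is a ring of proteins that encircles DNA, extrudes loops and holds sister chromatids together. STAG1 and STAG2 are alternative subunits of the ring. CTCF is a zinc finger protein that recognises a long DNA motif and stops cohesin there, mostly when cohesin arrives from the side that faces the start of the CTCF protein, so that loops end at CTCF sites. STAG2 is often mutated in bladder cancer. The study concerns its link with DREAM, a complex built around MuvB that represses cell cycle genes in quiescence.

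Some of the sites compared here are shown by 6 promoter sequences. Those with a match to a CTCF motif were chosen so that summits can be set against it. Each window runs from 250 bases before to 50 bases after a transcription start, is written 5′ to 3′ on the strand of the gene, and was taken from RefSeq for GRCm38.p6, the same build as mm10. Capitals mark matches to the 12-base core of the CTCF motif on either strand. The core was taken as CC, then any 3 bases, AG, any 2 bases and GGC. No mismatch was allowed, so a window without a match can still hold a CTCF motif that departs from this core. The core leaves several bases free, so a match can also arise by chance and need not be a motif that CTCF binds. The first 3 windows had STAG2 peaks in both libraries and no CTCF peak in either. They lie at chr8:84893872-84894171 for Gcdh, chr7:68749189-68749488 for Arrdc4 and chr11:118290195-118290494 for Usp36, all on the minus strand, and hold no match.
Gcdh: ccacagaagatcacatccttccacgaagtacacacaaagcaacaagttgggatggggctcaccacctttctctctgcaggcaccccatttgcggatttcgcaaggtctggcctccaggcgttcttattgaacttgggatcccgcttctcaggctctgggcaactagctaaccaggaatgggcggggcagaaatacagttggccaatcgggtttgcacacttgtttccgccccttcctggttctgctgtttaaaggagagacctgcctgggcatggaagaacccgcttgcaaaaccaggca
Arrdc4: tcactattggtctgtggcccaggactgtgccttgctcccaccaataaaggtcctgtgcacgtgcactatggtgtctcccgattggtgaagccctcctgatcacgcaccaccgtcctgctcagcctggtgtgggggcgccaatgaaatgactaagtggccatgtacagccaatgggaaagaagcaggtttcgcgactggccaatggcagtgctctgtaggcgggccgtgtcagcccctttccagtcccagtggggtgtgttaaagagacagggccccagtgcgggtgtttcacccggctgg
Usp36: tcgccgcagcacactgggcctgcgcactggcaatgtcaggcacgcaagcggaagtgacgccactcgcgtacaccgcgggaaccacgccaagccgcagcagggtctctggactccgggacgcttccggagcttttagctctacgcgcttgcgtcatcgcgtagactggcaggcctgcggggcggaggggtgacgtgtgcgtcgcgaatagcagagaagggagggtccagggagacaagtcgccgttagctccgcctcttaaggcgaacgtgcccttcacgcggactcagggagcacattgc

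The next pair of windows had strong peaks of both proteins. Irak2 lies at chr6:113638217-113638516 on the plus strand, with its match on the opposite strand. Nob1 lies at chr8:107424989-107425288 on the minus strand, with its match on the strand of the gene.
Irak2: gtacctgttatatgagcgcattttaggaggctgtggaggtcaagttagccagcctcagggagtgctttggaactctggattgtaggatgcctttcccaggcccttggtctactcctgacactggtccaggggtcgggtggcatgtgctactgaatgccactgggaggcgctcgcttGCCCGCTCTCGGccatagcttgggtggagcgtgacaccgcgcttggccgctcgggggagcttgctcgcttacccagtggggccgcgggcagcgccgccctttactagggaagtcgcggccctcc
Nob1: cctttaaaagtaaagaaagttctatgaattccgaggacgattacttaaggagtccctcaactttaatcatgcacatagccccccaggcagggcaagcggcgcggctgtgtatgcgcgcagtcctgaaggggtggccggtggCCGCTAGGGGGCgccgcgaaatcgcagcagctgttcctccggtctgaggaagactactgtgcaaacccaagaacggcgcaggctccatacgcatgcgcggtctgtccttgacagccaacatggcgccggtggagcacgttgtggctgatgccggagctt

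The last window had peaks of both proteins with a high CTCF rank and a low STAG2 rank. Zfp385a lies at chr15:103340037-103340336 on the minus strand, with its match on the strand opposite to the gene. The 3 windows with a match do not stand for their classes. Of the named genes with such a window, 4 of 8 with sites of all 4 libraries held a match, 1 of 5 where CTCF ranked higher, 1 of 5 where STAG2 ranked higher, and none of 8 with STAG2 without CTCF. The single named gene with CTCF without STAG2 that had a window, Ccdc65, held none.
Zfp385a: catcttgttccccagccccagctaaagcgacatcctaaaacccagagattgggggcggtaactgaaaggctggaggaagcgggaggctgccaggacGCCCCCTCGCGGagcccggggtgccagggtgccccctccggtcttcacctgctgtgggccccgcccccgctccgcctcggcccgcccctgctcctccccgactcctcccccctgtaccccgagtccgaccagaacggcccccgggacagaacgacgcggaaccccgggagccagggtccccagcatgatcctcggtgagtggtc

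The summits, which are the highest points of the peaks, can be set beside these letters. At Gcdh the STAG2 summits lay 43 and 39 bases after the transcription start, at Arrdc4 71 and 40 bases after it, and at Usp36 45 and 44 bases after it. At Nob1 the motif spans bases -109 to -98 from the start. The STAG2 summits of Nob1 lay at -76 and -90, and its CTCF summits at -106 and -76. At Irak2, with the motif at -74 to -63, the STAG2 summits lay at -71 and -21 and the CTCF summits at -67 and -69. At Zfp385a, with the motif at -154 to -143, the STAG2 summits lay at -140 and -120 and the CTCF summits at -150 and -129. At Irak2 and Nob1 the widest gap between replicate summits of 1 protein was at least as wide as the widest gap between a STAG2 and a CTCF summit.

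The core motif was searched in 21238 promoter windows of 300 bases, which belong to 17492 of the 21887 protein-coding genes. It was present in 9.87% of all windows. Windows overlapped by a STAG2 site without CTCF held it in 101 of 1362 cases (7.42%), those overlapped by a CTCF site without STAG2 in 15 of 130 (11.5%), and those overlapped by a site of all 4 libraries in 1338 of 8020 (16.7%). Windows with no site held it in 366 of 9225 cases (3.97%). The windows also differed in base composition, with a median GC content of 59.7% for STAG2 without CTCF, 54.0% for CTCF without STAG2, 64.3% for all 4 libraries and 47.7% for no site. The part of base composition in the motif shares was not tested. Promoters of the STAG2 sites without CTCF held the ETS motif CCGGAAG in 17.7% of cases, against 18.3% for sites of all 4 libraries and 11.6% of all windows. The NRF1 motif was found in 2.94% of the STAG2 windows without CTCF, in 2.07% of windows with all 4 libraries and in 1.33% of all windows. The E2F motif TTCCCGCC stood at 4.55% in the STAG2 windows without CTCF and 4.55% in those of all 4 libraries, against 2.85% of all windows. The CHR motif TTTGAA, the element bound by MuvB, was found in 12.5% of STAG2 windows without CTCF, 9.01% of windows with all 4 libraries and 16.0% of all windows. These motifs were searched on both strands, and overlaps between matches of different motifs were not removed.

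STAG2 had fewer peaks than CTCF in both replicates. The lists averaged 36344 ± 2918 peaks for STAG2 and 61796 ± 14087 for CTCF (SD, n = 2 each), a mean log2 ratio of -0.75. The exact two-sided permutation test gave p = 0.333, which is the smallest value that this test allows for 2 libraries against 2, so it cannot pass a threshold of 0.05 here. The peaks covered 26.8 and 23.5 Mb for STAG2 and 30.3 and 41.9 Mb for CTCF. Median widths were alike, at 564 and 556 bp for STAG2 and 530 and 545 bp for CTCF. The fold enrichments, which are the authors' own values for each peak, had medians of 9.48 and 9.81 in the STAG2 lists and 7.72 and 8.98 in the CTCF lists. They reached 105.8 and 83.3 in the STAG2 lists and 177.6 and 115.8 in the CTCF lists. The second CTCF library stands apart by length: 21791 sites were called in it alone, against 4793 and 2179 sites called in a single STAG2 library and 3496 in the first CTCF library alone. The lists give no read totals, so the depth behind these numbers is unknown. A site with no peak is one below the peak caller's threshold, and binding in fewer cells cannot be told apart from weaker binding in each cell.

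Most STAG2 peaks lay on peaks of both CTCF libraries, whereas a smaller share of the CTCF peaks lay on peaks of both STAG2 libraries. A peak was matched when it shared at least 1 bp with a peak of another list. Of the STAG2 peaks, 63.6% and 67.7% matched both CTCF libraries, while 25.3% and 21.1% matched neither. Of the CTCF peaks, 45.5% and 34.6% matched both STAG2 libraries, while 46.4% and 58.8% matched neither. The share with the other protein averaged 65.6% ± 2.85 for STAG2 and 40.1% ± 7.70 for CTCF (SD, n = 2 each). The groups did not overlap, and the difference of 25.6 percentage points had p = 0.333 in the exact two-sided permutation test. With the 20000 peaks of highest fold taken from every library, the difference was -0.22 points (exact p = 1), with 54.5% for STAG2 and 54.7% for CTCF. A match of 2 peaks counts for both lists, so lists of equal length give nearly equal shares by construction. This setting therefore cannot test the order of the shares.

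**Figure D1:**
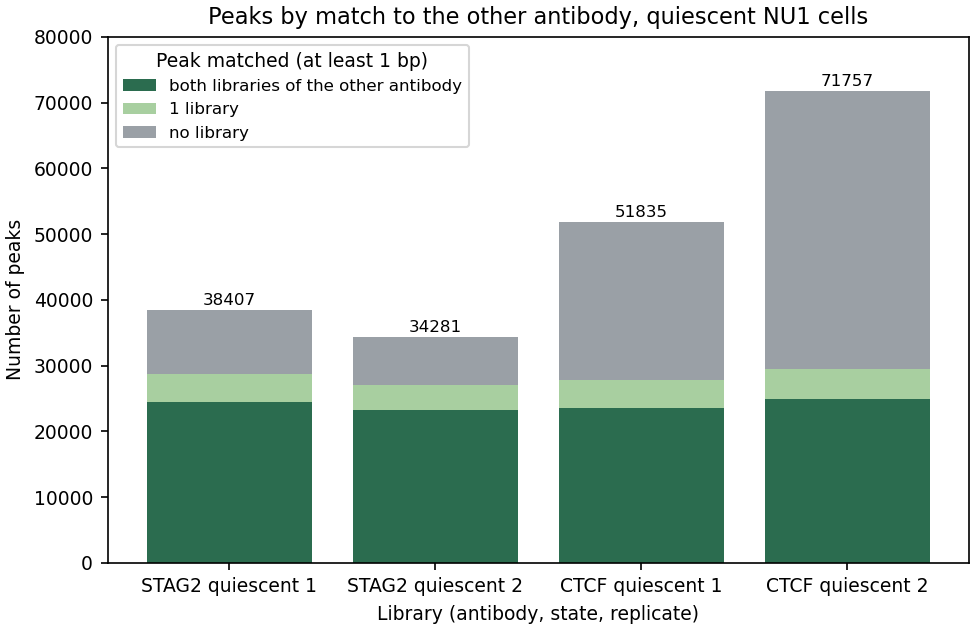
Number of peaks in each of the 4 quiescent libraries, STAG2 on the left and CTCF on the right, with each bar divided by whether the peak shared at least 1 bp with both, 1 or no library of the other antibody. The dark segments are of similar height in the 4 libraries, between 23192 and 24853 peaks, while the grey segments range from 7240 in the second STAG2 library to 42220 in the second CTCF library.

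The number of matched peaks was similar from either side. Peaks matching both libraries of the other protein numbered 24434 and 23192 in the STAG2 lists and 23596 and 24853 in the CTCF lists. Unmatched peaks numbered 9711 and 7240 in the STAG2 lists and 24055 and 42220 in the CTCF lists. Replicates of 1 protein matched each other more often than they matched the other protein. The first STAG2 list matched the second for 78.4% of its peaks, and the second matched the first for 88.8%. The first CTCF list matched the second for 89.9% of its peaks, while the longer second list matched the first for 64.7%. The Jaccard index, the shared length of 2 lists over their combined length, was 0.685 between the STAG2 replicates and 0.567 between the CTCF replicates. Between STAG2 and CTCF it was 0.388, 0.329, 0.381 and 0.321, all below both replicate pairs. The difference of 0.271 between the mean within and the mean between proteins had p = 0.333 in the exact one-sided permutation test over the 3 ways to split the libraries into pairs, the smallest value possible.

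Where the peaks of STAG2 and CTCF matched, their summits lay close together. The median distance between the matching summits was 37, 37, 36 and 37 bp over the 4 pairs of a STAG2 and a CTCF library. It was 33 bp between the STAG2 replicates and 21 bp between the CTCF replicates. Between 59.2% and 60.2% of matching peaks had STAG2 and CTCF summits within 50 bp of each other, against 63.2% for the STAG2 replicates and 78.1% for the CTCF replicates. The excess of between over within was 9.75 bp (exact one-sided permutation over 3 splits, p = 0.333). Leaving out 1 library put this excess between 3.5 and 16 bp, the 20000 strongest peaks of every library gave 4.75 bp, and counting only summits within 100 bp of each other gave 4 bp. The STAG2 replicates alone differed nearly as much as STAG2 differed from CTCF. For STAG1, the other form of the subunit, the median distance to CTCF in quiescent cells was 37 bp in all 4 pairs and the distance between its own replicates 32 bp. STAG1 and STAG2 summits were 34 or 35 bp apart.

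**Figure D2:**
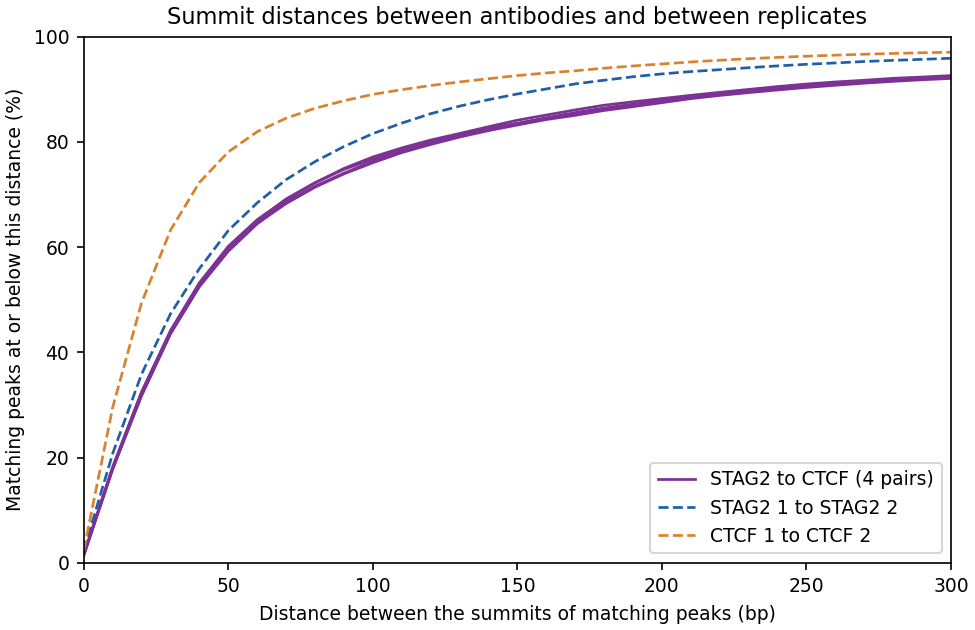
Cumulative share of matching peaks (vertical axis, percent) whose summits lie at or below a given distance (horizontal axis, bp), for the 4 pairs of a STAG2 and a CTCF library and for the replicate pair of each protein. The 4 curves between the proteins fall on each other, just under the curve of the STAG2 replicates, and the curve of the CTCF replicates runs above them all.

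The direction of the summit offset was read at promoters that held exactly 1 core motif within 100 bp of the mean CTCF summit and peaks of all 4 libraries, a measure chosen after the data had been seen. Sites with a summit of any library more than 300 bp from the motif's centre were left out. This choice held the mean CTCF summit within 100 bp of the motif, but the STAG2 summits only within 300 bp. It left 525 sites, and the offset is given along the motif as written above, from its CC to its GGC end. Whether each match is the motif that CTCF binds was not tested. The median STAG2 summit lay 17.5 and 17.5 bp beyond the motif's centre toward the GGC end in the 2 libraries, and the median CTCF summit 0.5 and 1.5 bp. The mean STAG2 summit minus the mean CTCF summit had a median of 13.5 bp with quartiles of -12.5 and 41 bp, and it was positive at 65.0% of the sites. All 4 pairs of libraries gave a positive median, from 11 to 14 bp. The replicates differed by a median of -1 bp for STAG2 (first minus second) and 1 bp for CTCF. The spread over sites was several times the median, so single promoters such as Nob1 and Irak2 do not show the direction by themselves.

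Merging overlapping peaks of the 4 lists gave 87078 sites. All 4 libraries called 21720 of them (24.9%). Both STAG2 libraries and no CTCF library called 4770 sites (5.48%), here named STAG2 sites without CTCF. Both CTCF libraries and no STAG2 library called 20299 sites (23.3%), here named CTCF sites without STAG2. A further 3076 sites had both STAG2 libraries with 1 CTCF library, 3480 had both CTCF libraries with 1 STAG2 library, and 32259 (37.0%) were called in a single library. Of the 29566 sites with both STAG2 libraries, 73.5% had both CTCF libraries and 16.1% had none. Of the 45499 sites with both CTCF libraries, 47.7% had both STAG2 libraries and 44.6% had none. These counts depend on list length and on the number of libraries asked for. With 20000 peaks from every library there were 5285 STAG2 sites without CTCF, 4981 CTCF sites without STAG2 and 10114 sites in all 4, and with 20000 STAG2 peaks against the full CTCF lists 792 STAG2 sites were without CTCF. Asking for 1 STAG2 library in place of both gave 7240 STAG2 sites without CTCF when the first was left out and 9711 when the second was, and leaving out the first CTCF library gave 42220 CTCF sites without STAG2.

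Both kinds of unshared site were weaker within their lists than shared sites. Ranks are given as percentiles of fold enrichment within a library, so that 100 is the strongest peak. STAG2 sites without CTCF had median STAG2 percentiles of 33.3 and 27.2, against 69.9 and 65.9 for sites in all 4 libraries. CTCF sites without STAG2 had median CTCF percentiles of 38.9 and 56.5, against 74.9 and 80.1 for sites in all 4. Their median widths were 595 bp for STAG2 sites without CTCF and 566 bp for CTCF sites without STAG2. Sites of all 4 libraries had 837 bp, but they merge peaks of more lists. Within a library, median STAG2 peak widths were 522 and 488 bp at STAG2 sites without CTCF and 640 and 605 bp at sites in all 4. Median CTCF peak widths were 464 and 551 bp at CTCF sites without STAG2 and 636 and 662 bp at sites in all 4.

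The share with the other protein was higher among stronger peaks. The first STAG2 list was cut by fold into 5 parts of about 20% each. From the weakest part to the strongest, 26.9%, 45.4%, 64.1%, 84.2% and 97.0% of peaks matched both CTCF libraries. The second STAG2 list gave 34.9%, 50.5%, 69.5%, 85.9% and 97.3%. The first CTCF list gave 28.2%, 25.5%, 33.0%, 52.0% and 89.0% of peaks matching both STAG2 libraries, and the second 24.1%, 19.2%, 19.7%, 33.9% and 76.2%. The STAG2 shares were higher at every step, while the CTCF shares of the 3 weaker parts lay close together in both libraries. The CTCF lists are longer, and this contrast was not present between lists of equal length. With 20000 peaks from every library, the strongest part had 86.8% and 90.2% for STAG2 and 92.9% and 90.1% for CTCF, and the weakest 29.6% and 26.4% for STAG2 and 27.4% and 22.3% for CTCF. Among the 1000 strongest peaks, 99.3% and 99.3% of STAG2 peaks and 99.8% and 98.9% of CTCF peaks matched both libraries of the other protein.

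**Figure D3:**
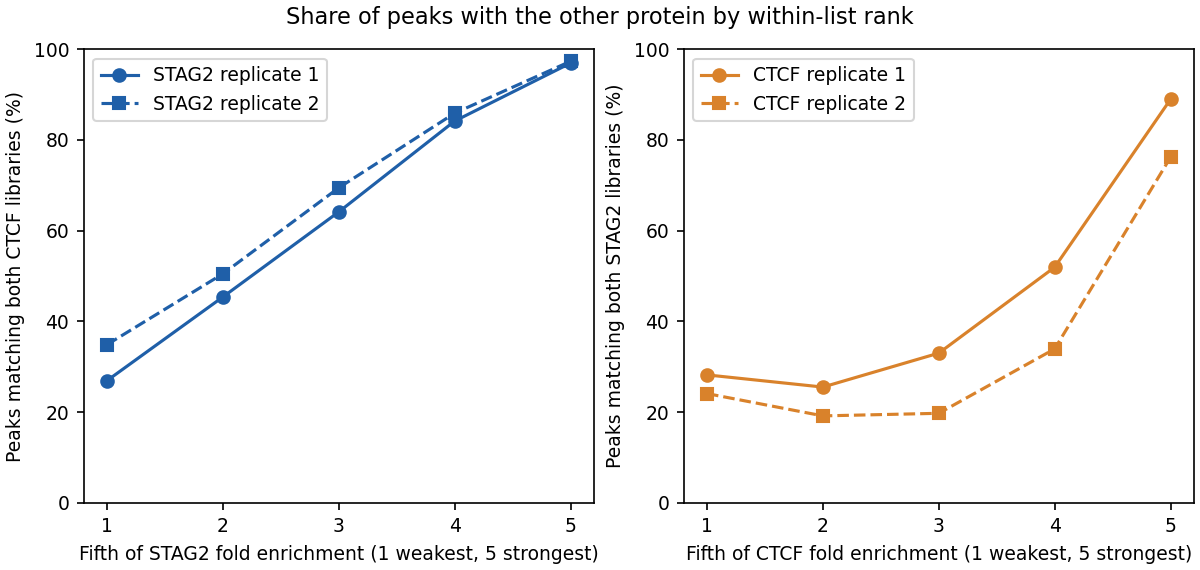
Share of peaks (percent) that match both libraries of the other protein, by rank of fold enrichment within the list in 5 parts of about 20%, for the STAG2 libraries on the left and the CTCF libraries on the right. The strongest part reaches 97.0% and 97.3% for STAG2 and 89.0% and 76.2% for CTCF, and the STAG2 lines climb at every step while the CTCF lines, from longer lists, climb over the upper ones.

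At the 21720 sites of all 4 libraries the ranks of the proteins were related but less closely than the ranks of replicates. Spearman's rank correlation was 0.87 between the STAG2 replicates and 0.92 between the CTCF replicates. It was 0.52, 0.47, 0.56 and 0.55 between a STAG2 and a CTCF library. These correlations are over sites that share libraries and are given as descriptions. Both STAG2 percentiles lay above both CTCF percentiles at 5253 sites (24.2%), and both CTCF percentiles above both STAG2 percentiles at 9767 sites (45.0%). Of the sites that ranked higher for STAG2, 62.7% lay within 1 kb of an end of a protein-coding gene, against 30.7% of those that ranked higher for CTCF and 40.4% of all sites in the 4 libraries. These counts compare percentiles between lists of unequal length. With 20000 peaks from every library, STAG2 ranked higher at 3268 of 10114 sites (32.3%) and CTCF at 3183 (31.5%), and gene ends held 33.5% of the sites that ranked higher for STAG2 and 34.9% of those that ranked higher for CTCF. Neither the excess of sites with a higher CTCF rank nor the contrast at gene ends was thus present between equal lists.

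**Figure D4:**
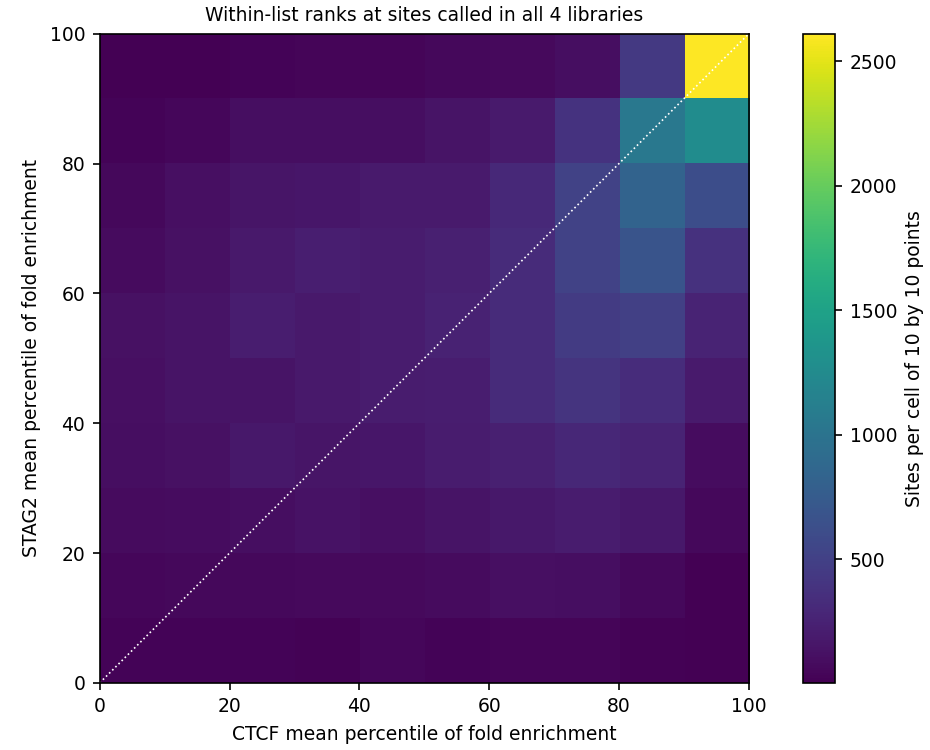
Number of sites called in all 4 libraries by the mean STAG2 percentile of fold enrichment (vertical axis) and the mean CTCF percentile (horizontal axis), in cells of 10 by 10 points, with the dotted line marking equal ranks. The fullest cell is the one with the highest ranks of both proteins, and sites are spread on both sides of the line below it.

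The 10 sites of all 4 libraries with the highest ranks at named genes had STAG2 folds from 62.1 to 105.8 and CTCF folds from 70.9 to 117.3. Each of them was also called in every STAG1 library of quiescent cells and in every library of proliferating cells. Kiss1r, the kisspeptin receptor, had STAG2 folds of 99.2 and 75.4 and CTCF folds of 115.8 and 82.7 at its 3′ end. Piezo1, a channel that opens on membrane stretch, had STAG2 folds of 88.8 and 69.8 and CTCF folds of 113.4 and 89.2 at its 5′ end. Scnn1g, which encodes part of an epithelial sodium channel, had STAG2 folds of 76.3 and 67.3 and CTCF folds of 117.3 and 76.3 at its 5′ end. Irak2, a kinase of interleukin-1 receptor signalling, had 83.1 and 75.4 for STAG2 and 106.7 and 72.2 for CTCF, and Nob1, an endonuclease of ribosomal RNA maturation, 76.1 and 70.2 for STAG2 and 110.7 and 77.6 for CTCF. The other 5 lay at Cdkn2aipnl, Ivd, Adamtsl5, Adgre5, and Chmp1a with Spata33. All 10 had percentiles above 99 in each library, so STAG2 and CTCF were both near the top of their lists there.

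The widest gaps in rank at named genes, from the lists as deposited, were at 5′ ends. Where STAG2 ranked above CTCF, the 5 named genes with the widest gap were Adora1, Mkln1, Vash1, Ppp4r3a and Leprot, with STAG2 folds from 25.3 to 57.9 and CTCF folds from 3.25 to 4.49, and all 5 sites were at a 5′ end. At Vash1, an enzyme that trims tubulin, the STAG2 folds were 57.9 and 53.4 and the CTCF folds 4.49 and 4.00. At Adora1, the adenosine A1 receptor, the STAG2 folds were 35.9 and 28.7 and the CTCF folds 3.45 and 3.25. The 5 genes with the widest gap the other way were Odr4 with Tpr, Hif1an, Rfwd3, Mpnd and Zfp385a, with STAG2 folds from 2.86 to 4.80 and CTCF folds from 20.3 to 41.5. At Hif1an, the hydroxylase that inhibits HIF1, the STAG2 folds were 3.60 and 4.00 and the CTCF folds 28.8 and 27.0. At Zfp385a the STAG2 folds were 3.67 and 4.67 and the CTCF folds 25.3 and 20.7. These 5 sites were at a 5′ end too. Peaks were merged into sites at a shared 1 bp, so the summits behind such a gap can lie apart. Counted from the transcription start, the Vash1 STAG2 summits lay at 4 and -39 and its CTCF summits at 684 and 226. The other genes where STAG2 ranked higher had separate summits too. For STAG2 and then CTCF they lay at 122 and 151 against 514 and 304 at Ppp4r3a, and at 87 and 82 against -233 and -476 at Leprot. Adora1, from its upstream start, had 514 and 482 against 958 and 657, and Mkln1 had -48 and -37 against 38 and 146. Where CTCF ranked higher, the Rfwd3 summits lay at 183 and 236 for STAG2 and at -615 and -590 for CTCF. At Hif1an, as at Zfp385a above, they lay closer, at -32 and 41 for STAG2 and -83 and -87 for CTCF.

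STAG2 sites without CTCF lay at gene ends far more often than CTCF sites without STAG2. Of the STAG2 sites without CTCF, 1567 of 4770 (32.9%) were within 1 kb of an end of a protein-coding gene. Of the CTCF sites without STAG2, 1494 of 20299 (7.36%) were, and of the sites in all 4 libraries, 8779 of 21720 (40.4%). The difference of 25.5 percentage points between the unshared classes was chosen for report after the data had been seen. It lay between 18.2 and 30.4 points without any 1 of the libraries. With 20000 STAG2 peaks against the full CTCF lists it was 28.5 points. With 20000 peaks from every library it was 45.7 points, but there a site with a weaker CTCF peak counts as one without CTCF. The STAG2 sites without CTCF then numbered 5285, against 792 with the full CTCF lists. Promoter windows were overlapped by 24.4% of STAG2 sites without CTCF, by 0.660% of CTCF sites without STAG2 (134 sites) and by 29.9% of sites in all 4. Gene bodies held 65.5% of the STAG2 sites without CTCF, 57.3% of the CTCF sites without STAG2 and 70.1% of the sites in all 4.

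The same contrast was seen library by library. Peaks at gene ends made up 34.8% and 36.6% of the STAG2 lists and 23.4% and 18.7% of the CTCF lists, and the difference of 14.6 points had p = 0.333 in the exact two-sided permutation test. Among peaks that matched both libraries of the other protein the shares were close, at 37.4% and 38.4% of STAG2 peaks and 41.0% and 40.7% of CTCF peaks. Among peaks that matched neither, they were 25.7% and 27.5% of STAG2 peaks and 7.29% and 6.05% of CTCF peaks. The contrast was present at every rank. From the weakest 20% of ranks to the strongest, 30.5%, 32.0%, 33.7%, 38.9% and 64.4% of STAG2 sites without CTCF were at gene ends, the last from 59 sites. For CTCF sites without STAG2 the values were 7.37%, 6.14%, 7.18%, 8.48% and 10.3%. At sites of all 4 libraries ranked by CTCF, the share at gene ends ran the other way, with 71.2% for the weakest 20% of ranks and 32.7% for the strongest.

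The 2 unshared classes were also placed differently relative to the other protein. The median distance from a STAG2 site without CTCF to the nearest CTCF peak was 4.85 kb, and from a CTCF site without STAG2 to the nearest STAG2 peak 8.55 kb. Within 1 kb of the other protein lay 18.7% of the STAG2 sites and 9.85% of the CTCF sites, and over 50 kb away lay 6.31% of the STAG2 sites and 10.4% of the CTCF sites. The CTCF lists hold more peaks, which shortens the distances to them. Over the autosomes, STAG2 without CTCF made up from 12.3% (chromosome 4) to 20.6% (chromosome 13) of the sites with both STAG2 libraries, and 21.7% on X. CTCF without STAG2 made up from 40.0% (chromosome 7) to 48.1% (chromosome 3) of the sites with both CTCF libraries, and 57.5% on X.

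Lists that did not enter the classes gave a second view of them. Both STAG1 libraries of quiescent cells called 39.0% of the STAG2 sites without CTCF, 6.28% of the CTCF sites without STAG2 and 91.5% of the sites in all 4. Neither STAG1 library called 1502 STAG2 sites without CTCF (31.5%) and 16996 CTCF sites without STAG2 (83.7%), against 2.21% of sites in all 4. In proliferating cells, both STAG2 libraries called 78.2% of the STAG2 sites without CTCF, 5.07% of the CTCF sites without STAG2 and 95.9% of the sites in all 4. Both CTCF libraries of proliferating cells called 10.8% of the STAG2 sites without CTCF, 61.5% of the CTCF sites without STAG2 and 95.8% of the sites in all 4. Neither of these CTCF libraries called 3121 of the STAG2 sites without CTCF (65.4%). None of the 6 other STAG lists called 13575 of the CTCF sites without STAG2 (66.9%), whereas 132 of the STAG2 sites without CTCF were absent from those lists. STAG1 was found at 53.8% of STAG2 sites without CTCF on average over its 2 quiescent libraries. That share was 93.6% with 20000 peaks from every STAG2 and CTCF library, where sites with a weaker CTCF peak count as without CTCF. It was 81.6% with 20000 STAG2 peaks against the full CTCF lists and 34.2% when the second STAG2 library was left out. Over the same 5 ranges of STAG2 rank, both STAG1 libraries called 20.9%, 32.6%, 59.6%, 78.4% and 59.3% of the STAG2 sites without CTCF, against 58.4%, 73.1%, 89.6%, 98.5% and 99.6% of the sites in all 4.

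Among STAG2 sites without CTCF, the 10 at named genes with the highest STAG2 ranks had folds from 26.6 to 52.6, and 8 of them lay at a 5′ end. Gcdh, a mitochondrial dehydrogenase of lysine breakdown, had STAG2 folds of 52.6 and 43.1 at chr8:84893451-84894212, which covers its 5′ end. Arrdc4, an arrestin-domain protein, had 52.6 and 31.5 at its 5′ end, and Usp36, a nucleolar deubiquitinase, 44.0 and 34.0. Rbx1, the RING subunit of cullin ubiquitin ligases, had 40.8 and 35.2, and Dmac2, which helps assemble mitochondrial respiratory complexes, 37.4 and 36.9. Acta1, skeletal muscle actin, had 40.4 and 34.9 at its 3′ end, and a site at the 5′ end of Zbtb22 and the 3′ end of Daxx, a chaperone of histone H3.3, had 30.3 and 28.7. The other 3 were Kif5c, a neuronal kinesin, Tmem241, and Ap3b2 with BC048679. The nearest CTCF peak of quiescent cells lay 0.215 kb from the Zbtb22 site. For the rest of the 10 it lay from 2.44 kb (Rbx1) to 42.7 kb (Arrdc4) away. Both STAG2 libraries of proliferating cells called all 10 sites. Both STAG1 libraries of quiescent cells called 5 of them, and none called 3, which were Gcdh, Dmac2 and Daxx with Zbtb22. Both CTCF libraries of proliferating cells called 2 of the 10, Kif5c with CTCF folds of 5.49 and 5.28 and Ap3b2 with 6.99 and 3.00, a single one called 5 and neither called 3. The Gcdh site had STAG2 folds of 46.4 and 49.2 in proliferating cells and no STAG1 peak in quiescent cells.

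Among CTCF sites without STAG2, the 10 at named genes with the highest CTCF ranks had folds from 28.1 to 61.3. Rnf135, a ubiquitin ligase of antiviral signalling, had CTCF folds of 55.9 and 61.3 at its 3′ end. Arhgdia had 47.4 and 40.8 with both gene ends covered, and Mettl17, a factor of mitochondrial ribosome assembly, 41.4 and 49.4. Itpr3, an inositol trisphosphate receptor, shared a site with Uqcc2 at 37.9 and 40.4, and H3f3b, which encodes histone H3.3, had 29.8 and 40.8 at its 3′ end. Fanca, a core protein of the Fanconi DNA repair pathway, had 28.9 and 41.0. The others lay at Prpsap1, Ccdc65, Ipo9 and Wdr70. The class is that of a site and not of a gene. The nearest STAG2 peak lay from 0.396 kb (Wdr70) to 18.6 kb (Mettl17) away, with 0.442 kb at Arhgdia and 0.79 kb at Fanca. Promoters of Wdr70, Arhgdia and Fanca also held sites of all 4 libraries. Both CTCF libraries of proliferating cells called all 10 named sites, and both STAG2 libraries of proliferating cells called 4 of them.

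At the level of genes, 1207 of 21887 protein-coding genes (5.51%) had STAG2 peaks of both libraries within 1 kb of an end and no CTCF peak there, and 492 (2.25%) had the reverse. Both proteins in both libraries were found at 9332 genes (42.6%), neither at 7853 (35.9%), and 3003 (13.7%) had an incomplete pattern, with a peak in a single library of a protein. In all, STAG2 was at 11878 genes (54.3%) in both libraries and CTCF at 10202 (46.6%). A single site called in all 4 libraries lay at an end of 9208 genes (42.1%). With 20000 peaks from every library, 3044 genes had STAG2 without CTCF, and with 20000 STAG2 peaks against the full CTCF lists 269 had STAG2 without CTCF and 1966 CTCF without STAG2. Leaving out the second CTCF library gave 2124 genes with STAG2 without CTCF. The genes with CTCF without STAG2 numbered 855 without the first CTCF library and 782 without the first STAG2 library.

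Cell cycle genes were read from lists of genes known as DREAM targets. Of 49 genes of the G2 and M phases, 8 (16.3%) had STAG2 without CTCF, against 5.51% of all genes. They included Kif18a, a kinesin that limits chromosome oscillation, with STAG2 folds of 16.2 and 13.2, Anln, the actin scaffold anillin of the cleavage furrow, with 8.67 and 7.17, Mybl2, the B-Myb partner of MuvB, with 9.07 and 6.33, and Bub3, a spindle checkpoint protein, with 10.0 and 5.50. Kif14 was the single gene of the list with CTCF without STAG2 (2.04%, against 2.25% of all genes), at CTCF folds of 12.5 and 23.7. Both proteins were at 19 of the 49 genes (38.8%), close to the 42.6% of all genes. Ccna2, cyclin A2, had STAG2 folds of 10.6 and 14.7 and CTCF folds of 51.3 and 42.7. Cdc25b, a phosphatase that starts mitosis, had STAG2 folds of 17.5 and 18.5 and CTCF folds of 11.5 and 19.5.

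Of 60 genes of the G1/S transition, 5 (8.33%) had STAG2 without CTCF, against 5.51% of all genes. None had the reverse, against 2.25% of all genes. Pola1, the catalytic subunit of DNA polymerase alpha, had STAG2 folds of 11.5 and 9.48, Gmnn, geminin, 6.33 and 7.00, and Rrm1, the large subunit of ribonucleotide reductase, 5.99 and 5.67. Mcm10 was in this class too. Both proteins were at 36 of the 60 genes (60.0%, against 42.6% of all genes), led by the histone chaperone Asf1b with STAG2 folds of 52.3 and 45.3 and CTCF folds of 79.0 and 51.9. Of the 13 genes listed for DREAM and MuvB, which include Mybl2 and the kinase gene Dyrk1a beside subunits, 11 (84.6%) had both proteins. Among them E2f5 had STAG2 folds of 30.3 and 19.7 and CTCF folds of 42.0 and 34.3, and Rbl1, the pocket protein p107, had STAG2 folds of 13.0 and 11.7 and CTCF folds of 15.3 and 15.0. Mybl2 had STAG2 without CTCF, and Lin37 had neither. No set test was run on these lists, so their shares stand only beside those of all genes.

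Genes for cohesin, its regulators and CTCF itself were near all genes in the share with both proteins, at 6 of 15 (40.0%, against 42.6% of all genes). At Stag2 the STAG2 folds were 51.0 and 36.7 and the CTCF folds 58.3 and 45.7, and at Pds5a, a regulator of cohesin release, the STAG2 folds were 35.1 and 36.2 and the CTCF folds 40.0 and 37.0. Smc3, a core subunit of the ring, had STAG2 folds of 31.5 and 29.3 and CTCF folds of 35.4 and 44.0. Esco2, the acetyltransferase of sister chromatid cohesion, had STAG2 without CTCF at folds of 8.14 and 10.1, and so did Mau2, a subunit of the cohesin loader, at 12.3 and 7.00. Nipbl, Rad21 and Stag1 had neither protein at their ends.

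Over all genes, 42.6% had both proteins and 5.51% STAG2 without CTCF. Of 30 genes of urothelial differentiation, 24 (80.0%) had both and 2 (6.67%) had STAG2 without CTCF. Upk3b, a uroplakin of the apical membrane, had STAG2 folds of 69.1 and 58.4 and CTCF folds of 73.3 and 61.4, and Cdh1, E-cadherin, had STAG2 folds of 75.9 and 59.0 and CTCF folds of 49.8 and 46.6. Foxa1, a pioneer factor of urothelial identity, had STAG2 folds of 27.3 and 21.3 and no CTCF peak, and Krt20, a keratin of umbrella cells, 8.16 and 6.34 and no CTCF peak. Of 18 basal genes, 5 (27.8%) had both proteins and 3 (16.7%) had STAG2 without CTCF, which were Lama3, a laminin of the basement membrane, at 17.7 and 12.4, Cd44, a hyaluronan receptor, at 9.50 and 15.3, and Sox2 at 8.48 and 5.99. All but 1 of the 31 genes of EGF receptor and MAPK response (96.8%) had both. Dusp1, a phosphatase that ends MAPK signalling, had STAG2 folds of 50.2 and 34.3 and CTCF folds of 67.2 and 62.7.

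Of 14 lipid genes known as PPAR gamma targets, 6 (42.9%) had both proteins, 1 (7.14%) had STAG2 without CTCF and 5 (35.7%) had neither. Over all genes these shares were 42.6%, 5.51% and 35.9%, so the list was near them. The first of the 6 was Cpt1a, which brings fatty acids into mitochondria, with STAG2 folds of 18.9 and 20.8 and CTCF folds of 46.0 and 39.6. The gene with STAG2 alone was Lpl, lipoprotein lipase, at folds of 5.49 and 5.67. Of 23 genes for CDK inhibitors and growth arrest, 20 (87.0%) had both and 2 (8.70%), Ccng1 and Rb1, had STAG2 without CTCF. Cdkn2b, the inhibitor p15, had STAG2 folds of 54.3 and 35.5 and CTCF folds of 55.5 and 46.4. Of 21 genes for transcription elongation factors, 16 (76.2%) had both, with Cdk9, the kinase of P-TEFb, at STAG2 folds of 77.5 and 54.4 and CTCF folds of 78.6 and 68.3. Ell had STAG2 without CTCF.

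Gene clusters are set beside the shares of all genes, which were 42.6% for both proteins, 5.51% for STAG2 without CTCF, 2.25% for CTCF without STAG2 and 35.9% for neither. Of 39 Hox genes, 6 (15.4%) had STAG2 without CTCF, 1 (Hoxd11) had CTCF without STAG2 and 19 (48.7%) had both. Hoxa9 had STAG2 folds of 90.5 and 70.2 and CTCF folds of 74.6 and 69.0. Of 57 clustered protocadherins, none had STAG2 without CTCF, 9 (15.8%) had CTCF without STAG2 and 31 (54.4%) had neither. The 9 are genes of the gamma cluster with 1 common 3′ end, and all of them rest on the same peak there, with CTCF folds of 12.0 and 17.0. Of 62 replication-dependent histone genes, 55 (88.7%) had both proteins and 3 (4.84%) had STAG2 without CTCF, and neighbours among them share peaks. Of 81 ribosomal protein genes, 53 (65.4%) had both, 4 (4.94%) had STAG2 without CTCF and Rps2 had CTCF without STAG2. Of 53 keratin genes, 10 (18.9%) had both, 3 (5.66%) had STAG2 without CTCF and 2 (3.77%) had the reverse.

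Lists of genes from other tissues differed among themselves, beside 35.9% of all genes with neither protein and 42.6% with both. Of all genes, 5.51% had STAG2 without CTCF and 2.25% CTCF without STAG2. Of 1106 olfactory receptors, 1078 (97.5%) had neither protein, 7 had CTCF without STAG2 and 1 had STAG2 without CTCF. Of 10 fibroblast markers 6 (60.0%) had neither protein and 2 had both, and of 10 immune markers 6 (60.0%) had neither, 2 had both and Cd79a had STAG2 without CTCF. Of 8 neuron markers 4 had both proteins, 1 (12.5%) had neither and 2 (25.0%), Snap25 and Syp, had STAG2 without CTCF. Of 15 imprinted genes found in the gene table, 9 (60.0%) had both proteins and none had STAG2 or CTCF alone. Binding at a gene is no measure of its expression, so these lists describe occupancy and not the cells present.

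**Figure D5:**
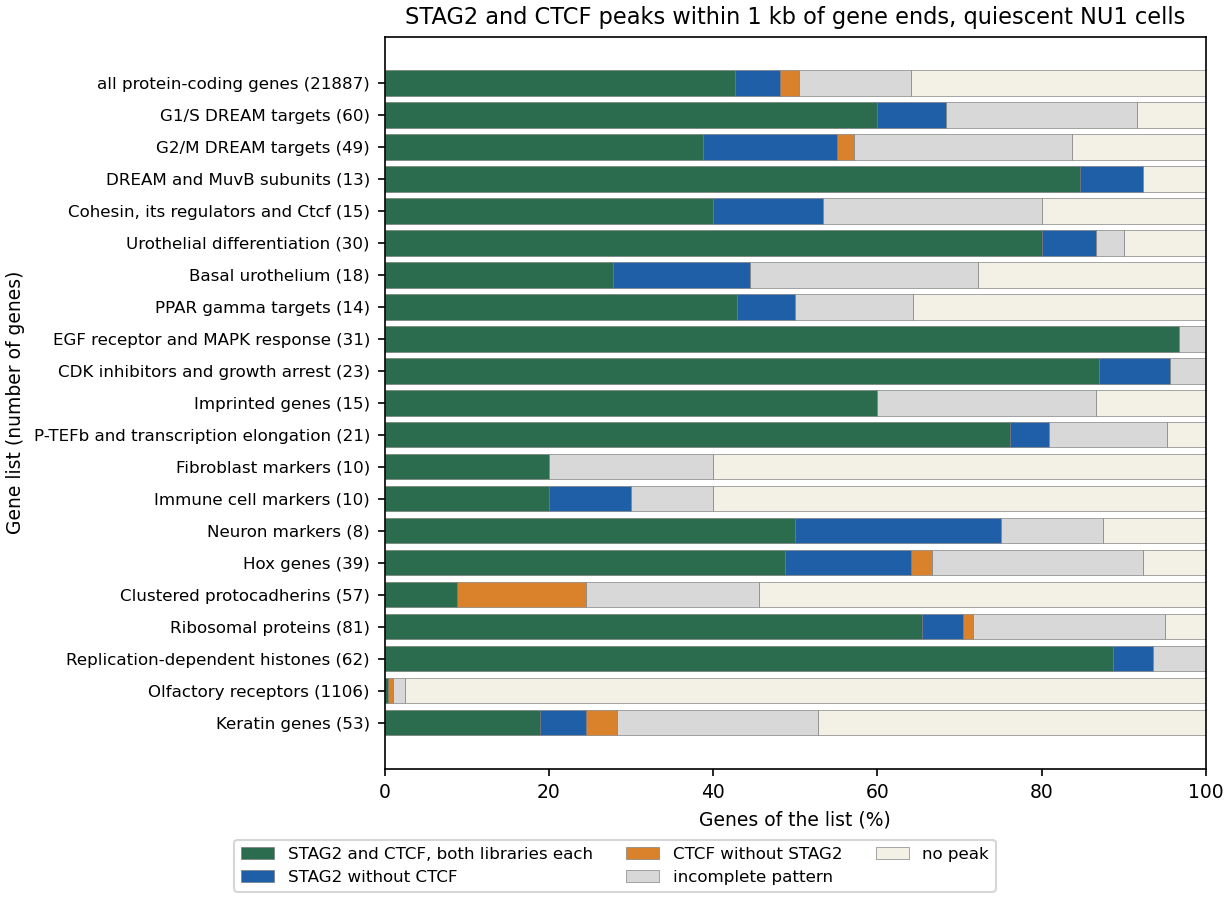
Share of the genes of each list (horizontal axis, percent) by the pattern of peaks within 1 kb of a gene end, with the number of genes in brackets and all protein-coding genes at the top. STAG2 without CTCF (blue) is found at 16.3% of the G2/M DREAM targets and 5.51% of all genes, and CTCF without STAG2 (orange) at 15.8% of the clustered protocadherins and 2.25% of all genes.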

How the data were processed

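ChIP-seq libraries of quiescent NU1 cells were grouped by antibody from the labels. Per the submitters' processing notes, the authors' tools included MACS2, BWA, HOMER, Picard and bcl2fastq, on mm10; tool versions are not given in the sources used here. A separate list of peaks was deposited for each library, so replicates were not pooled. For each peak the deposited lists give a score, a fold enrichment (a ratio to background), and both p-value and q-value as −log10, as the authors' caller wrote them. Folds were used only to describe and rank peaks within a list. The deposited lists hold no read counts or depth, so no intervals for depth could be given. Whether the background was input chromatin or IgG was not settled.

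Peaks matched at a shared 1 bp and were merged over the 4 lists into sites. Summit distances were taken to the nearest summit of a matching peak. Genes and promoter windows came from RefSeq tables for GRCm38.p6, with 21887 protein-coding genes; a gene end is 1 kb on each side of either end. The gene table has no strand, so 5′ and 3′ ends were named only where a promoter window gave the strand. Sex chromosomes were kept.

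Libraries were compared by exact permutation: 6 two-sided arrangements or 3 splits into pairs. Same-numbered replicates were taken as unpaired, since only 2 pairs exist and no label ties them; their rank deviations correlated at 0.159 over the sites of all 4 libraries. The text names the 10 highest ranking sites of each of 3 classes at named genes, the 5 with the widest rank gap each way, and up to 4 members of each gene list per pattern, from which examples were taken after their values were seen. The classes, lists and members were chosen with earlier results of these data known. The site classes and the median summit distance were tested on simulated peaks. The two-sided permutation test and the motif search were checked on made-up examples. The other steps were not tested in this way. Alternatives were stricter peaks (−log10 q of at least 5), 20000 peaks per list, other match rules, a 2 kb window and leaving out each library. Python 3.11.15, numpy 2.4.6, pandas 2.3.3 and scipy 1.17.1 were used.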

Additional observations from a re-analysis of the deposited data

How the results depend on the processing

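Each of 16 results was recomputed under the alternatives. Of the counts, 31 recomputed values lay within 1.5 times the reported one and 12 did not. Of the values with no test, 24 lay within a spread around the reported value and 32 did not. The spread was the SD over libraries or over pairs of libraries. For the class difference at gene ends it was 1.38 points, computed from the variance over sites, which are not replicates. The permutation tests cannot pass the threshold in this design, so their side of it says nothing about stability. Of their recomputed differences, 40 kept their sign and 1 did not. That one was the share of peaks with the other protein, STAG2 minus CTCF, at -0.22 points with 20000 peaks per library. Equal lists give nearly equal shares by construction, so this sign carries no weight. In no case was the cause tested.

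Equal lists of 20000 peaks also gave 4981 CTCF sites without STAG2, 10114 sites in all 4 libraries, 3044 genes with STAG2 without CTCF, STAG1 at 93.6% of STAG2 sites without CTCF, 54.5% of STAG2 and 54.7% of CTCF peaks with both libraries of the other protein, and 45.7 points between the classes at gene ends. Cutting the CTCF lists counts a site or gene with a weaker CTCF peak as without CTCF. With 20000 STAG2 peaks against full CTCF lists there were 792 STAG2 sites without CTCF. The genes with STAG2 alone and CTCF alone then numbered 269 and 1966. This setting gave STAG1 at 81.6%, 85.2% of STAG2 and 27.1% of CTCF peaks, and 28.5 points at gene ends. A −log10 q of at least 5 moved STAG1 to 63.5% and gene ends to 31.7 points. Reciprocal overlap of 50% gave STAG1 at 63.9%, 54.1% of STAG2 and 32.3% of CTCF peaks, and 29.9 points. Summits within 100 bp gave STAG1 at 66.9%, 47.3% of STAG2 and 27.1% of CTCF peaks, a rank correlation of 0.59, a summit offset of 11.5 bp along the motif, and 30.4 points. A window of 2 kb gave 23.4 points.

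Leaving out 1 library gave 5729 to 9711 STAG2 sites without CTCF, 21407 to 42220 CTCF sites without STAG2, 22698 to 24146 sites in all the libraries kept, 1351 to 2124 genes with STAG2 alone and 580 to 855 with CTCF alone. It gave STAG1 at 34.2% to 60.9%, 63.6% to 73.3% of STAG2 peaks and 34.6% to 45.5% of CTCF peaks with both libraries of the other protein, and differences between these of 18.5 to 38.6 points. Gene ends differed by 18.2 to 30.4 points between classes and 12.2 to 17.0 between lists. The rank correlation lay between 0.48 and 0.55, the offset between 13 and 16.5 bp, the log2 ratio of peak numbers between -0.98 and -0.51, the Jaccard difference between 0.209 and 0.361 and the summit excess between 3.5 and 16 bp.

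With the replicate number as a block, the differences were the same (-0.75, 14.6 and 25.6) with exact p = 0.5, the smallest that 4 arrangements allow. The summit offset, the motif within 50 bp (14.8 bp) and the class difference at gene ends were added after the data had been seen. The rank comparisons between equal lists were added then too. The summit excess was 7 bp with reciprocal overlap and 4 bp with summits within 100 bp, and the share difference 58.2 points with 20000 STAG2 peaks against full CTCF lists. Equal lists fix the ratio of peak numbers, and the match rule does not enter gene counts, peak numbers or Jaccard indices, so no values exist there. With 2 libraries per group and no read totals, differences below the caller's threshold were not detectable.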
